A study of Mus musculus with 6 samples.

Results

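The replication-dependent histone genes were described across prostate tumors and normal prostate of mice. They were every gene of the count table whose symbol starts with Hist, a cluster number from 1 to 4 and the letter h. This rule by name used no measured value, but it was set with earlier results of these data known. There were 64 such genes among 24091. By class they were 6 linker H1, 16 H2A, 17 H2B, 10 H3 and 13 H4 genes and 2 genes that the name or the RefSeq annotation marks as pseudogenes, Hist1h2al and Hist3h2bb-ps.

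RNA was sequenced in 6 libraries, 2 from each of 3 groups. The 12Q tumors came from males hemizygous for a humanised allele with 12 glutamines in its polyglutamine tract, and the 48Q tumors from males with the same allele carrying 48 glutamines. Both tumor groups also carried 1 conditional Ctnnb1 allele, in which exon 3 of the β-catenin gene can be removed, and PBCre-4, a transgene whose probasin promoter expresses Cre recombinase in prostate epithelium. Normal prostate of wild-type mice (WT) made up the remaining group, and it carried none of these alleles, so the tumor and the alleles cannot be told apart in comparisons with it. The labels give no strain, age or batch and leave unstated if the replicates are different animals. The p-values therefore describe the spread among these 6 libraries, part of which may be technical. In whole tissue, fewer cells of a type and less RNA per cell cannot be told apart.

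Histones package DNA into nucleosomes, whose core holds H2A, H2B, H3 and H4, while H1 binds the linker DNA between them. Most of the genes studied here are clustered copies of a kind that lacks introns and is transcribed in S phase, when newly made DNA needs new histones. Such mRNA ends in a conserved stem-loop that is bound by the stem-loop binding protein SLBP, in place of a poly(A) tail, and it is degraded when replication stops. Some of them also make longer, polyadenylated mRNA in cells that do not divide. A library made by selecting poly(A) tails would hold few of the stem-loop mRNAs. The labels name total RNA extraction with RNA-Bee and the Kapa RNA HyperPrep kit but do not say whether poly(A) selection or depletion of ribosomal RNA came before it.

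The stem-loop was searched in the GENCODE M21 transcripts (mm10), in the first 100 bases after the stop codon, because it separates replication-type mRNA ends from others. It was present in 42 of 64 histone genes, and in 42 of the 47 for which M21 annotates enough sequence after the stop codon to be searched. Among 20917 other protein-coding genes, 10 (0.0478%) held it, of which 4 also have names that start with Hist. The 16-base stem-loop had 8 versions, and 1 version was shared by 22 genes of the H1, H2A, H2B and H3 classes. Another version occurred in 7 genes, all of class H4, and another in 6. The examples below show 4 of the versions, in genes described further on, with the stem-loop in capitals and 5 flanking bases on each side in lower case.

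Hist1h1c: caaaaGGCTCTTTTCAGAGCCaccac
Hist1h1e: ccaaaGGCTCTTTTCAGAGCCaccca
Hist1h2be: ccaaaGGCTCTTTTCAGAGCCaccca
Hist3h2ba: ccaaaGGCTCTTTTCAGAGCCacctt
Hist1h4d: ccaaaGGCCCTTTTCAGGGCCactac
Hist1h4i: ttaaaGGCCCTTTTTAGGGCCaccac
Hist4h4: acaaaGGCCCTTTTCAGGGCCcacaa
Hist1h2bk: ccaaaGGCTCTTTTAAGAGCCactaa

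Hist1h2bc and Hist2h2be, which held most of the H2B counts, were among the 5 searched genes with no stem-loop found in an M21 transcript. The others were Hist1h1a, Hist1h2br and Hist2h3b. The M21 transcript of Hist2h2be is 2620 bases long, 2192 of them after the stop codon, and ends with a polyadenylation signal (AATAAA or ATTAAA in the last 40 bases). That of Hist1h2bc has 2 exons over 1156 bases. Only spliced transcripts were searched, so a stem-loop in its intron would be missed. In Hist1h2bp the M21 transcript with 1 exon holds the stem-loop and the one with 2 exons does not. The M21 transcript of Hist1h1c holds the stem-loop but runs 840 bases past it to a polyadenylation signal. Such extended transcripts, over 100 bases past the stem-loop, were annotated for 21 genes, 9 of the 17 with enough counts to be tested and 12 of the 47 others. The gene models of the count table mostly stop at the stem-loop. In 38 of the 42 genes with a stem-loop they end within 10 bases after it, so reads from an extension are not counted there, and in Hist1h2be the model runs 1861 bases past it.

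Few reads came from these genes. Library totals ranged from 26416181 to 28559546 counts, and the 64 genes together took 1959 and 1930 counts in the 12Q tumors, 2953 and 2777 in the 48Q tumors and 1261 and 1438 in WT. That was 0.00466% to 0.0108% of a library. Hist1h1c, Hist1h2bc and Hist2h2be held 85.7% of the 12318 counts. Of the 64 genes, 9 had no count in any library, 29 had 1 to 10 counts over the 6 libraries, 20 had 11 to 100 and 6 had more than 100. Only 15 had a count in every library, and 29 had 0 counts in both WT libraries. A count of 3, the limit that 0 counts allow, corresponded to 0.0856 to 0.156 CPM (edgeR's counts relative to the TMM-scaled library size), and such limits cover counting error only. After the filter on low counts, 17 of the 64 genes were tested: 3 H1, 1 H2A, 6 H2B, 1 H3, 5 H4 and the pseudogene Hist1h2al. The filter needs the counts of only 1 group, so these 17 do not stand for all 64.

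**Figure D1:**
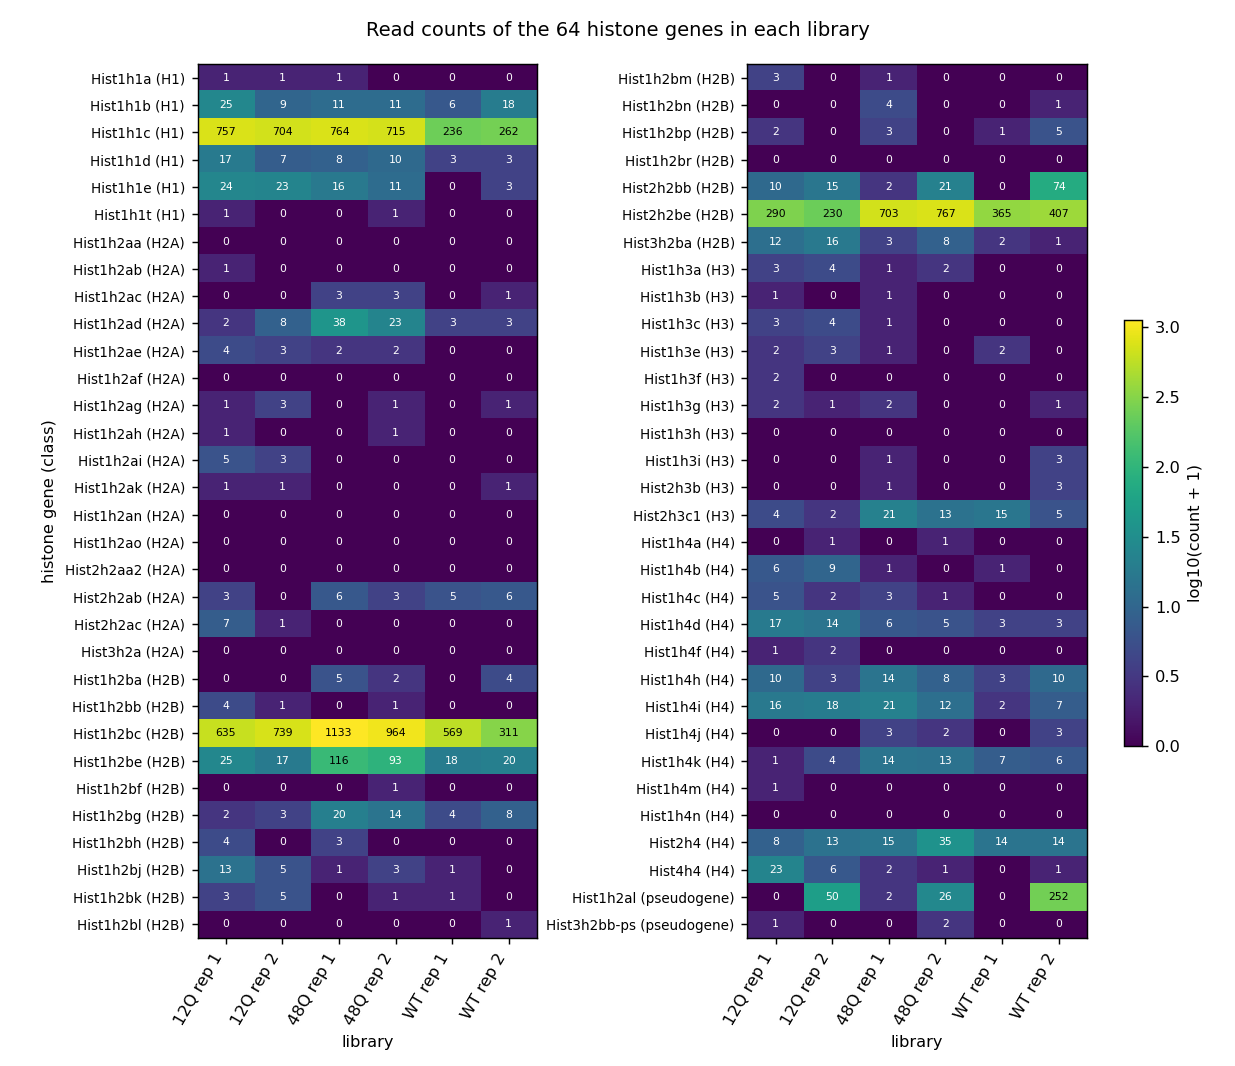
Read counts of the 64 histone genes in each of the 6 libraries (columns), with the class in brackets and the colour showing log10(count + 1). Rows of Hist1h1c, Hist1h2bc and Hist2h2be hold 230 or more counts in every library, while most other rows hold 0 to 25.

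Sums over classes and loci rested mostly on the 3 most counted genes. Summed over a class, H2B stood at 37.1 and 31.9 CPM in the 12Q tumors, 60.04 and 53.5 in the 48Q tumors and 50.1 and 36.8 in WT. H1 stood at 30.5 and 23.03 CPM in 12Q, 24.1 and 21.3 in 48Q, with 12.8 and 12.6 in WT, and both tumor groups lay above WT. Without Hist1h1c, which held 3438 of its 3648 counts, H1 stood at 2.52 and 1.24, 1.08 and 0.94, and 0.47 and 1.06 CPM, and 48Q overlapped WT. Without Hist1h2bc and Hist2h2be, H2B stood at 2.89 and 1.92, 4.76 and 4.11, and 1.41 and 5.04 CPM. H4 reached 1.56 to 3.26 CPM, H2A 0.417 to 1.48 and H3 0.428 to 0.887, although H2A, H2B, H3 and H4 enter the nucleosome in equal numbers. Every H2A gene model holds exons of another M21 gene, which few models of the other core classes do. The effect of this on the class sums was not tested. Most counts came from 1 stretch of the chromosome 13 cluster. This cluster (cluster 1) is divided here where neighbouring genes lie over 500 kb apart. The stretch that holds Hist1h1c (3438 counts) and Hist1h2bc (4351) had 30 genes and 8545 counts, and the other large stretch, with 21 genes, had 287. Cluster 2 on chromosome 3 had 3078 counts in 8 genes, 2762 of them from Hist2h2be. Cluster 3 on chromosome 11 had 45 counts in 3 genes, and cluster 4, which is Hist4h4 alone on chromosome 6, had 33.

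Hist1h1c encodes H1.2, a linker histone that is also made outside S phase, and it was the only one of the 17 that passed edgeR's test in any comparison. It lies on chromosome 13 at 23738807 to 23739531 (plus strand). Its level was 28.01 and 21.8 CPM in the 12Q tumors, 23.0 and 20.4 in the 48Q tumors and 12.3 and 11.6 in WT. All 4 tumor libraries lay above both WT libraries, and the tumor groups overlapped. It was 2.08-fold higher in 12Q tumors than in WT (a log2 change of 1.06, SE 0.28, edgeR adjusted p = 0.04). In 48Q tumors the log2 fold change was 0.86 (SE 0.28, edgeR adjusted p = 0.121), and between the tumors it was 0.20 (SE 0.27, edgeR adjusted p = 0.667). With all libraries, Hist1h1c in 12Q against WT also passed DESeq2's test (adjusted p = 0.00445). It passed edgeR's test with DESeq2's size factors (edgeR adjusted p = 0.0396) and with library totals (edgeR adjusted p = 0.0125). The call in 12Q tumors was lost with the replicate number as a block (edgeR adjusted p = 0.0565), in a fit of the 2 groups alone (0.131) and without any 1 of 5 libraries. These were 12Q replicate 1 (0.0761), 48Q replicates 1 and 2 (0.132 and 0.13) and WT replicates 1 and 2 (0.0771 and 0.0877). It held without 12Q replicate 2 (0.0483).

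The other H1 genes had far fewer counts. Hist1h1e, the H1.4 gene, had 24 and 23 counts in 12Q, 16 and 11 in 48Q, with 0 and 3 in WT, with every tumor library above both WT libraries. Its ratio of 12Q to WT was 11 with a 95% counting interval from 3.55 to 55.4, and it missed the threshold (edgeR adjusted p = 0.0647). Hist1h1d, the H1.3 gene, had 17 and 7 counts in 12Q, 8 and 10 in 48Q, with 3 and 3 in WT and was not tested. Hist1h1b, the H1.5 gene, had 25 and 9, 11 and 11, and 6 and 18 counts in the same order, with groups that overlapped in all 3 comparisons. Hist1h1a, the H1.1 gene, had 1 count in each of 3 tumor libraries and 0 elsewhere, and the testis-type Hist1h1t had 1 count in each of 2 tumor libraries.

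**Figure D2:**
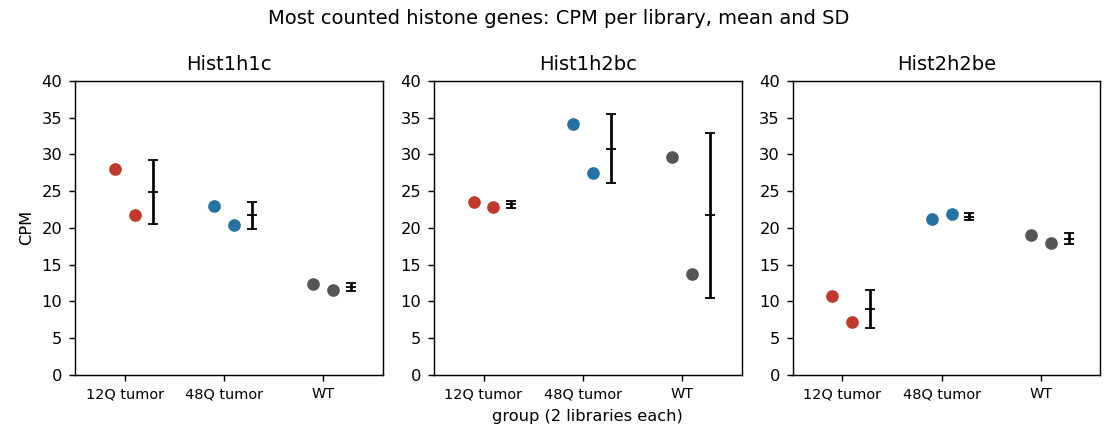
CPM of Hist1h1c, Hist1h2bc and Hist2h2be in each library (points) with the group mean and SD (bars, n = 2). Hist1h1c is lowest in WT, Hist2h2be is lowest in the 12Q tumors, and the WT libraries of Hist1h2bc lie on both sides of the 12Q tumors.

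Hist2h2be (chromosome 3, 96221072 to 96223738, plus strand) is an H2B gene whose human counterpart makes polyadenylated mRNA in cells that do not divide. Its level was 10.7 and 7.12 CPM in the 12Q tumors, 21.2 and 21.9 in the 48Q tumors and 19.04 and 18.0 in WT. Both 12Q libraries lay below the other 4. The log2 fold change was -1.05 against WT (SE 0.31, edgeR adjusted p = 0.0575) and -1.27 against 48Q tumors (SE 0.31, edgeR adjusted p = 0.0717), so neither passed. Both passed in DESeq2's test (adjusted p = 0.0105 and 0.00422). The comparison with WT also passed without 12Q replicate 1 (edgeR adjusted p = 0.0393). Against WT the 48Q tumors gave 0.22 (edgeR adjusted p = 0.699).

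Hist1h2bc (chromosome 13, 23684199 to 23692480, plus strand) had the most counts of all 64 genes. Its level was 23.5 and 22.9 CPM in 12Q, 34.1 and 27.5 in 48Q, with 29.7 and 13.8 in WT. The WT libraries differed by more than the tumor groups did, and the gene passed in no comparison. The log2 fold change was 0.10 in 12Q against WT (SE 0.39, edgeR adjusted p = 0.88), 0.51 in 48Q against WT (SE 0.39, edgeR adjusted p = 0.464) and -0.41 between the tumors (SE 0.39, edgeR adjusted p = 0.533). Without WT replicate 2 the first of these turned to -0.36 (edgeR adjusted p = 0.362). Per kilobase of gene model and averaged over the 6 libraries, Hist1h2bc stood at 32.7 CPM per kb, Hist1h1c at 27.0 and Hist2h2be at 6.12. On the same scale H3f3b, which encodes the replacement histone H3.3, stood at 173.

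The less counted H2B genes differed among themselves. Hist1h2be had 116 and 93 counts in 48Q tumors against 25 and 17 in 12Q and 18 and 20 in WT. Both 48Q libraries lay above the other 4. The log2 fold change was -2.08 in 12Q against 48Q (SE 0.58, edgeR adjusted p = 0.0904) and 1.75 in 48Q against WT (SE 0.57, edgeR adjusted p = 0.128). The former passed in DESeq2's test (adjusted p = 0.0248). M21 places exons of Hist1h1e within the span of this gene model, on the same strand, although the table's models of the genes do not overlap, so its counts are uncertain. Hist1h2bg had 2 and 3 counts in 12Q, 20 and 14 in 48Q, with 4 and 8 in WT, and 12Q lay below both other groups. Its log2 fold change between the tumors was -2.51 (SE 0.77, edgeR adjusted p = 0.11).

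Hist3h2ba, from cluster 3, had its highest counts in 12Q tumors. It had 12 and 16 counts in 12Q, 3 and 8 in 48Q, with 2 and 1 in WT. The ratio of 12Q to WT was 6.57 (95% counting interval 2.03 to 33.8, edgeR adjusted p = 0.0847). Hist2h2bb had 10 and 15, 2 and 21, and 0 and 74 counts in 12Q, 48Q and WT. Its counts and those of the pseudogene Hist1h2al (0 and 50, 2 and 26, and 0 and 252) were higher in replicate 2 than in replicate 1 of every group. Both gene models also hold exons of other M21 genes.

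H2A had 1 tested gene, Hist1h2ad. It had 2 and 8 counts in 12Q, 38 and 23 in 48Q, with 3 and 3 in WT, so both 48Q libraries lay above the others. The log2 fold change was 2.61 in 48Q against WT (SE 0.85, edgeR adjusted p = 0.125) and -2.43 in 12Q against 48Q (SE 0.80, edgeR adjusted p = 0.129). Its gene model also spans Hist1h3d, and 67.1% of the 50-base windows of its M21 transcripts occur in another gene. The other 15 H2A genes were all below the filter, each with at most 7 counts in a library. The H3 class also had 1 tested gene, Hist2h3c1, with 4 and 2 counts in 12Q, 21 and 13 in 48Q, with 15 and 5 in WT. Both 12Q libraries lay below the other 4. All of its windows (100%) occur in another gene, since cluster 2 holds a near-identical copy. The span of its gene model also holds exons of 8 other M21 genes. Among them are Hist2h3c2 and the H2A genes Hist2h2aa1 and Hist2h2aa2, so its counts are uncertain.

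Among the 5 tested H4 genes the groups stood in different orders. Hist1h4d had 17 and 14 counts in 12Q, 6 and 5 in 48Q, with 3 and 3 in WT. The log2 fold change was 1.85 in 12Q against WT (SE 0.73, edgeR adjusted p = 0.116) and 1.69 against 48Q (SE 0.68, edgeR adjusted p = 0.18). Hist1h4k had 1 and 4 counts in 12Q, 14 and 13 in 48Q, with 7 and 6 in WT, and its log2 fold change between the tumors was -2.20 (SE 0.82, edgeR adjusted p = 0.158). Hist1h4i had 16 and 18, 21 and 12, and 2 and 7 counts, with all tumor libraries above WT. Hist1h4h had 10 and 3, 14 and 8, and 3 and 10 counts. Hist2h4 had 8 and 13, 15 and 35, and 14 and 14 counts. Hist4h4, below the filter, had 23 and 6 counts in 12Q, 2 and 1 in 48Q, with 0 and 1 in WT.

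Counted over the 17 tested genes, 12Q tumors against WT gave 1 higher and 0 lower, where 11.2% of all 15050 tested genes were called higher and 11.2% lower. In 48Q tumors against WT 0 were higher and 0 lower, against 3.95% and 1.23% of all genes. In 12Q against 48Q tumors 0 were higher and 0 lower, against 1.01% and 3.16%. At an unadjusted edgeR p under 0.05 the counts were 5, 3 and 6 of 17, where 38.5%, 24.9% and 26.3% of all genes were past it. The 5 were 4 higher and 1 lower in 12Q than in WT, the 3 were all higher in 48Q, and the 6 were 1 higher and 5 lower in 12Q than in 48Q. DESeq2's test called 1 higher and 1 lower, 1 higher and 0 lower, and 0 higher and 2 lower in the same order of comparisons. Of all genes it called 16% higher and 16.7% lower, 10.4% and 6.5%, and 6.11% and 10.4%.

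Groups that did not overlap were counted as well. In 12Q against WT both libraries of 12Q lay above both of WT in 5 of the 17 genes and below in 5, where 30.1% and 30.4% of all genes did so. In 48Q against WT the counts were 8 above and 0 below, against 34.7% and 29.8%. In 12Q against 48Q they were 3 above and 8 below, against 31.3% and 35.5%. The 8 below were Hist1h2ad, Hist1h2bc, Hist1h2be, Hist1h2bg, Hist2h2be, Hist2h3c1, Hist1h4k and Hist2h4, and the 3 above were Hist1h1e, Hist3h2ba and Hist1h4d. The median log2 fold change of the tested genes was -0.33, 0.33 and -0.41 in the 3 comparisons, beside -0.01, 0.02 and 0.00 over all genes. The first changed sign without WT replicate 2 (0.52), without 12Q replicate 2 (0.02) and with library totals in place of TMM (0.16), a scaling that moved the median of all genes to 0.48, 0.71 and -0.19. When 1 library was left out the medians of the tested genes ranged from -0.74 (without 12Q replicate 1) to 0.52, from 0.33 to 0.82 (without WT replicate 2) and from -0.41 to -0.25 (without 48Q replicate 1). With library totals the median in 48Q against WT was 1.02. Among the tested genes are the pseudogene Hist1h2al (log2 fold changes -2.83, -3.78 and 0.95) and Hist2h2bb (-1.97, -2.30 and 0.33). Both had 0 counts in WT replicate 1. Summed over the 61 genes other than the 3 most counted, the mean CPM was 0.728 times WT in 12Q and 0.803 times in 48Q. Leaving out Hist1h2al and Hist2h2bb as well gave 1.49 and 1.76 times. The comparisons share groups, so their counts are not independent of each other.

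**Figure D3:**
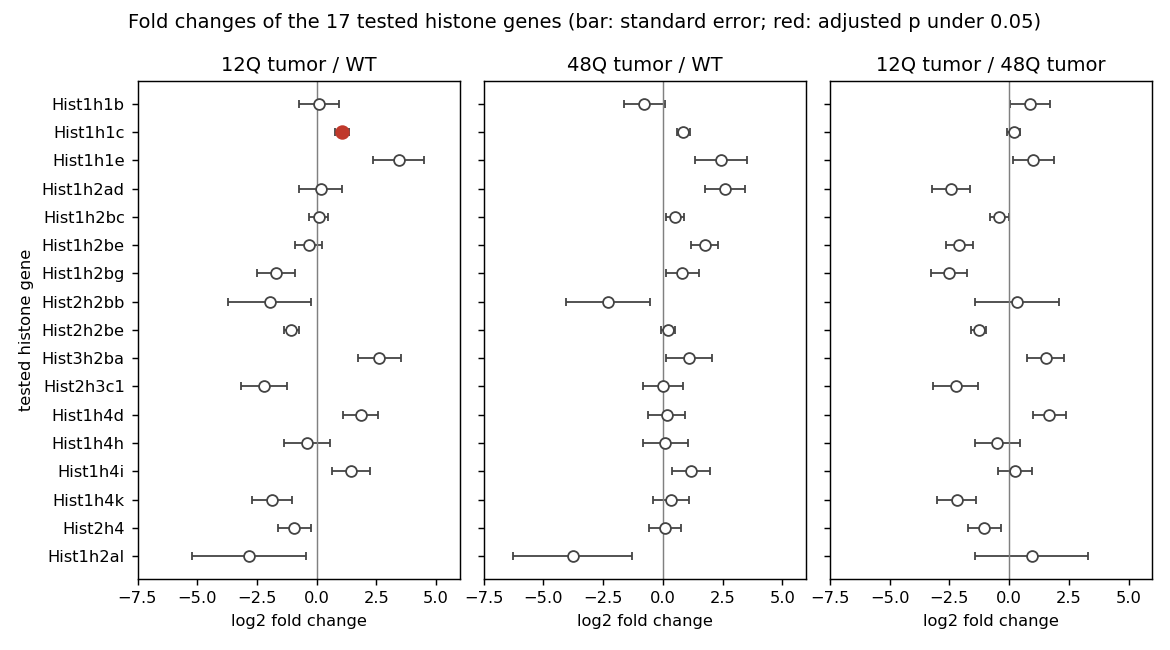
Log2 fold change (points) with its standard error (bars) of the 17 tested histone genes in each comparison, with genes past an edgeR adjusted p of 0.05 in red. Hist1h1c in 12Q tumors against WT is the only red point, and points lie on both sides of 0 in all 3 panels.

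The 47 untested genes had 121 and 62 counts together in the 12Q tumors, 54 and 38 in the 48Q tumors and 14 and 34 in WT. Scaled, this was 4.48 and 1.92 CPM, 1.63 and 1.08 CPM, and 0.73 and 1.503 CPM, with both 12Q libraries above the other 4. When the filter on low counts was left out, 55 of the 64 genes had counts and were tested among 19156 genes, and Hist1h1c in 12Q against WT was again the only one past the threshold (edgeR adjusted p = 0.048), where 8.72% of all genes were higher and 8.59% lower. At an unadjusted p under 0.05 the 3 comparisons, in the order above, then had 8, 3 and 8 such genes, where 32%, 21.2% and 22.7% of all genes were past it. In 12Q against WT, besides Hist1h1c, Hist1h1e, Hist2h2be and Hist3h2ba, they were Hist1h2ae, Hist1h2bj, Hist1h3a and Hist4h4, which had 11, 23, 10 and 33 counts in all 6 libraries.

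Divergent H2A and H2B genes start back to back and share a promoter. Within 500 bases of each other lay 11 such pairs, 1 of them with the pseudogene Hist3h2bb-ps, and counts were unequal within them. Hist1h2ac had 7 counts over the 6 libraries and Hist1h2bc, whose annotated start lies 240 bases away, had 4351. Hist2h2ac had 8 and Hist2h2be, 192 bases away, had 2762. In the reverse direction, Hist1h2ad had 77 counts and its H2B partner Hist1h2bf had 1. The gene model of Hist1h2ad runs 1356 bases past its stem-loop and holds exons of Hist1h3d and Gm44359, so its counts are uncertain. Hist1h2ac and Hist2h2ac hold the stem-loop, and none was found in the searched M21 transcripts of either partner. The M21 transcript of Hist2h2ac ends 57 bases past it and that of Hist1h2ac 2010 bases past it, but the table's gene model of each ends within 10 bases of it, so reads from these extensions are not in the counts. The models of Hist1h2ac and Hist2h2ac also hold exons of other M21 genes (Gm44350 and Gm44492), and the models of their partners hold none. The effect of these exons on the counts was not tested.

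**Figure D4:**
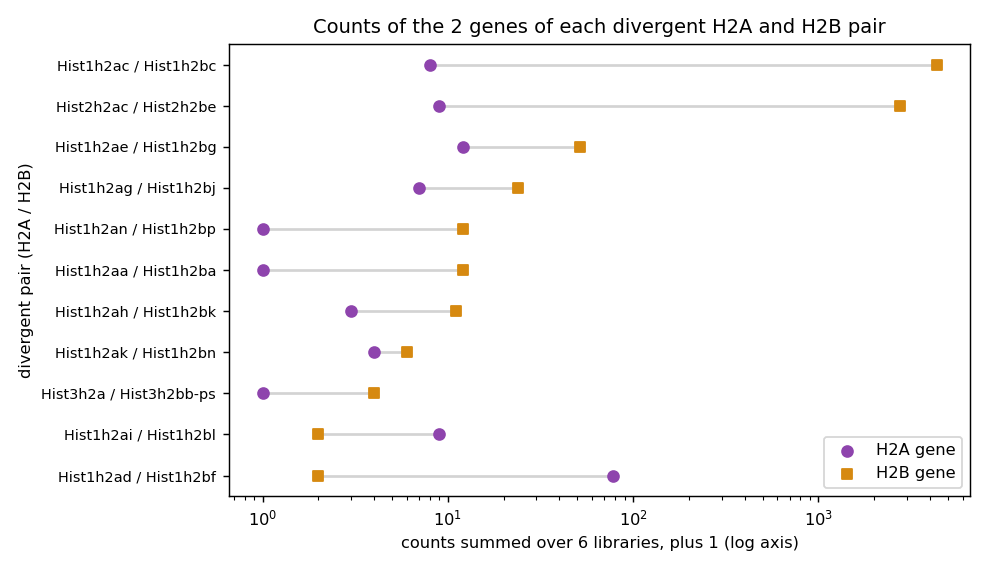
Counts summed over the 6 libraries, plus 1 (log axis), for the H2A gene (circle) and the H2B gene (square) of each of the 11 divergent pairs, with Hist3h2bb-ps in the place of an H2B gene. The widest gaps are Hist1h2ac with 7 counts against Hist1h2bc with 4351, and Hist2h2ac with 8 against Hist2h2be with 2762.

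The sequences at these 2 most unequal pairs, from the RefSeq start of the H2A gene to the M21 start of its partner, are shown because each is the shared promoter of 1 gene with many counts and 1 with fewer than 10. They are RefSeq sequences (GRCm38.p6) on the minus strand, read towards the H2A gene, at chr13:23683960-23684198 and chr3:96220881-96221118. The distances above are between starts in the count table, whose model of Hist2h2be begins at 96221072, inside the latter stretch. Capitals mark the octamer ATTTGCAT, TATAAA and CCAAT on either strand.

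Hist1h2ac–Hist1h2bc: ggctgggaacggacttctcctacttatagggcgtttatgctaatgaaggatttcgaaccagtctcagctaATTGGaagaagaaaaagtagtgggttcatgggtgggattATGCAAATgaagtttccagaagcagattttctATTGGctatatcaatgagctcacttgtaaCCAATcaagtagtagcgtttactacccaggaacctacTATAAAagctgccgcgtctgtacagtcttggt
Hist2h2ac–Hist2h2be: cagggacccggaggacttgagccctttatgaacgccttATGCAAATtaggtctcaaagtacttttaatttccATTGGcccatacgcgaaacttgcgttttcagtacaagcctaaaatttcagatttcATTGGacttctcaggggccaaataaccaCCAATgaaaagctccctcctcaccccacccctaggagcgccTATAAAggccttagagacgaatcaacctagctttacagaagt

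Both hold 1 octamer, 3 CCAAT and 1 TATAAA, so the same motifs stand in both shared promoters. Promoters of 57 of the 64 genes were matched in the RefSeq table by synonym, each reaching from 250 bases before to 50 after the start, and both strands were searched. The octamer was in 7 of 16 H2A and 7 of 15 H2B promoters, in 0 of 6 H1, 0 of 8 H3 and 0 of 12 H4 promoters and in 1.97% of all 27025. Promoters of divergent partners overlap, so the same octamer can be counted for both genes, and the H2A and H2B counts are not independent. TATAAA was in 33 of the 57 (15.7% of all promoters) and CCAAT in 48 of them (41.1% of all), with CCAAT in only 3 of the 12 H4 promoters. These matches describe the letters and not a factor's binding.

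The 6 histone genes whose human counterparts are known for polyadenylated transcripts are Hist1h1c, Hist1h2ac, Hist1h2bc, Hist1h2bk, Hist2h2be and Hist3h2a. The 3 most counted genes were all on this list, while Hist1h2ac had 7 counts, Hist1h2bk 10 and Hist3h2a 0. The list was chosen with earlier results of these data known, so this overlap is not independent of them. Of the 3 testis-type genes, Hist1h2ba had 11 counts, Hist1h1t 2 and Hist1h2aa 0. The testis germ cell markers Prm1, Prm2 and Tnp1 had no count in any library.

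The genes that make, carry or replace these histones were described from lists of known members. Of 11 variant and replacement histones coded outside these clusters, here called replication-independent, 4 were called higher in 12Q tumors than in WT. Of these histones 0 were called lower there, where 11.2% of all tested genes were called higher and 11.2% lower. In 48Q against WT 3.95% of all genes were called higher, and in 12Q against 48Q 1.01%. DESeq2's test called 5, 2 and 4 of the 11 higher in the 3 comparisons, where it called 16%, 10.4% and 6.11% of all genes higher. H1f0, the linker histone of differentiated cells, stood at 486 and 324 CPM in 12Q, 75.1 and 101 in 48Q, with 73.9 and 78.0 in WT. It was higher in 12Q than in WT (by 2.42 on the log2 scale, edgeR adjusted p = 0.00628) and than in 48Q (2.21, edgeR adjusted p = 0.0247). Cenpa, the centromeric H3, rose in 12Q (4.38, edgeR adjusted p = 0.00509) and in 48Q (2.82, edgeR adjusted p = 0.0324), as did H1fx (3.997 and 2.92, edgeR adjusted p = 0.00773 and 0.0387). H3f3b stood at 474 and 292, 256 and 268, and 426 and 350 CPM, and H3f3a at 57.4 and 28.2, 23.0 and 27.5, and 31.2 and 22.9. H2afz stood at 13.8 and 7.21, 7.65 and 8.18, and 12.6 and 14.7 CPM, and H2afx, the H2A of DNA damage sites, at 29.6 and 33.9, 15.02 and 15.5, and 16.3 and 19.0. The 4 became 7 with library totals, and 1 was lower without 12Q replicate 2. In 48Q against WT 2 of the 11 were higher, and 0 were without any 1 of the 48Q or WT libraries. In 12Q against 48Q 1 was higher, and 0 were without 12Q replicate 1 or either 48Q library.

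Of 16 genes of histone gene transcription and 3′ end processing, 3 were higher in 12Q tumors than in WT and 0 lower, and 0 passed in the other comparisons. Of all tested genes, 11.2% were called higher in 12Q than in WT. Eri1, a nuclease that trims histone mRNA ends, stood at 62.1 and 65.3 CPM in 12Q, 36.8 and 37.7 in 48Q, with 29.1 and 25.03 in WT (rise of 1.24 on the log2 scale from WT to 12Q, edgeR adjusted p = 0.0135). Snrpb, a spliceosomal protein also found in the U7 particle, and Zfp473, a zinc finger protein that works with that particle, rose by 1.07 and 2.35 on the log2 scale (edgeR adjusted p = 0.0254 and 0.0491). Slbp stood at 28.9 and 28.1 CPM in 12Q, 22.6 and 24.6 in 48Q, with 14.6 and 19.2 in WT and did not pass (edgeR adjusted p = 0.0876 in 12Q against WT). Npat, the coactivator of histone gene transcription, stood at 47.6 and 39.1, 41.5 and 46.6, and 45.9 and 40.9 CPM, with groups that overlapped. Without either 48Q library 0 of the 16 were higher in 12Q than in WT, and with library totals 10 were. In 48Q against WT 6 were higher with library totals, and in 12Q against 48Q DESeq2's test called 2 higher. It called 6.11% of all genes higher there.

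Of 20 histone chaperones, 4 rose in 12Q tumors against WT and 1 fell, where 11.2% of all tested genes were called higher and 11.2% lower. Asf1b, the cycling H3 and H4 chaperone, stood at 9.55 and 12.8 CPM in 12Q, 3.94 and 5.30 in 48Q, with 1.72 and 1.86 in WT (2.64 on the log2 scale, edgeR adjusted p = 0.0117). Chaf1b, a subunit of the assembly factor that works at the replication fork, and Nap1l1, an H2A and H2B chaperone, rose by 2.44 and 1.01 (edgeR adjusted p = 0.024 and 0.0198). Atrx, which places H3.3 in heterochromatin, fell by 1.14 on the log2 scale in 12Q against WT (edgeR adjusted p = 0.0245) and by 1.39 against 48Q (edgeR adjusted p = 0.0396). The former was lost with library totals (-0.62, edgeR adjusted p = 0.0646), in a fit of the 2 groups alone and without 12Q replicate 2, either 48Q library or WT replicate 1. The latter was lost with the replicate block (edgeR adjusted p = 0.0513) and without any 1 of the 4 tumor libraries. Its level was 143 and 130 CPM in 12Q, 344 and 373 in 48Q, with 332 and 268 in WT. In 48Q against WT 0 of the 20 passed. The 4 became 2 without 12Q replicate 2 or 48Q replicate 1, 1 without 48Q replicate 2 and 10 with library totals.

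Genes of DNA replication and mitosis gave larger counts in the same libraries. Of 27 S phase and replication genes, 12Q tumors had 19 called higher than WT and 0 lower. The 48Q tumors had 1 higher than WT and 0 lower, and 0 passed between the tumors. Of all tested genes, edgeR called 11.2%, 3.95% and 1.01% higher in the 3 comparisons. The median log2 fold changes of the 27 genes were 1.95, 0.85 and 1.12. Ccna2, the S phase cyclin A2, rose in 12Q (3.64, edgeR adjusted p = 0.00409) and in 48Q (2.34, edgeR adjusted p = 0.0267), and Mcm5, of the replicative helicase, and Rrm2, of ribonucleotide reductase, rose in 12Q (3.42 and 2.10, edgeR adjusted p = 0.00869 and 0.00823). The 19 became 10 without 12Q replicate 2, 11 without either 48Q library and 9 without WT replicate 1. In 48Q against WT, Ccna2 was the 1 call, and 0 were left without any 1 of the 48Q or WT libraries. DESeq2's test called 23, 8 and 10 of the 27 higher in the 3 comparisons, where it called 16%, 10.4% and 6.11% of all genes higher.

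Of 16 G2 and M phase genes, all 16 were higher in 12Q tumors than in WT and 13 in 48Q than in WT. In 12Q against 48Q 2 were higher, and 0 were lower in any comparison. Of all tested genes, edgeR called 11.2%, 3.95% and 1.01% higher in these 3 comparisons. Mki67, a marker of cycling cells, stood at 103 and 204 CPM in 12Q, 66.9 and 118 in 48Q, with 18.0 and 22.0 in WT (2.94 and 2.21 on the log2 scale against WT, edgeR adjusted p = 0.0095 and 0.0444). Top2a and Kif20a were the 2 higher in 12Q than in 48Q (1.58 and 1.74, edgeR adjusted p = 0.0409 and 0.0418). The 13 became 1 without 48Q replicate 1 and 0 when 48Q replicate 2 or either of the WT libraries was left out. The 2 became 0 without any 1 of the 4 tumor libraries. Beside these medians of 3.64, 2.41 and 1.48, the tested histone genes had -0.33, 0.33 and -0.41, which moved with the libraries and the scaling as given above, and the difference between the lists was not tested. The histone medians include the pseudogene Hist1h2al and Hist2h2bb, whose WT libraries differed widely. They leave out the 47 untested histone genes. The summed CPM of these was 2.86 times WT in 12Q, 1.21 times WT in 48Q and 2.36 times 48Q in 12Q. These sums rest on 323 counts, and the 12Q libraries differed, at 4.48 and 1.92 CPM.

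**Figure D5:**
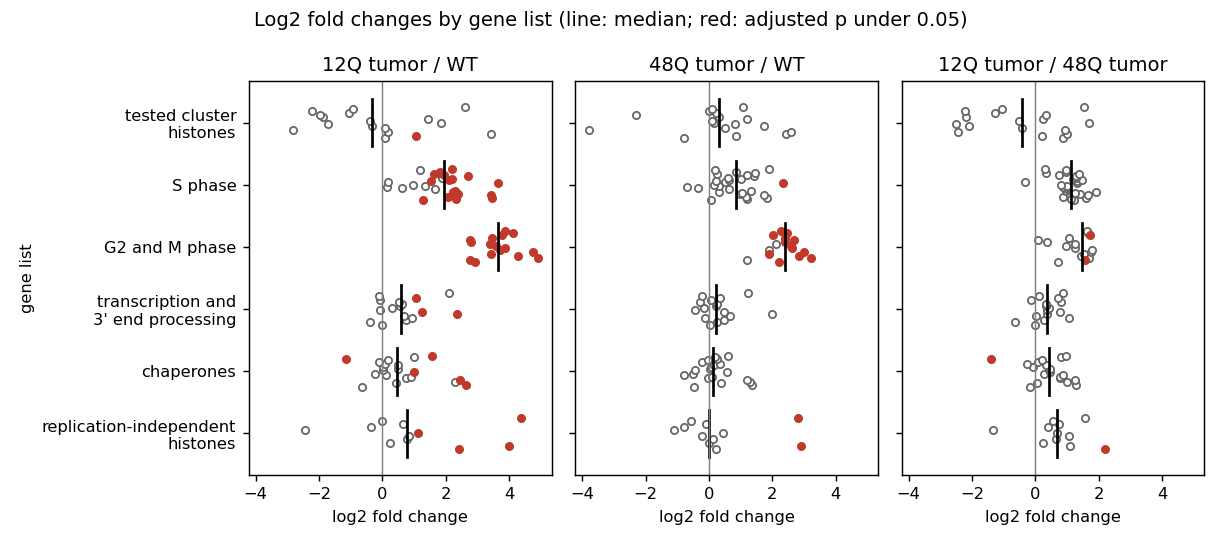
Log2 fold change of each tested gene (points) by list, with the list's median (line) and genes past an edgeR adjusted p of 0.05 in red, for the 3 comparisons. S phase and G2 and M phase genes lie mostly above 0, with medians of 1.95 and 3.64 in 12Q tumors against WT, while the tested cluster histones have a median of -0.33 there. These histones include the pseudogene Hist1h2al and Hist2h2bb, both with 0 counts in WT replicate 1. The 47 untested histone genes are not shown.

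The tissue makeup differed between the groups. Of the 4 prostate secretory markers, none was at 0 in all libraries (Spink1 had a count in 1 library only). Their summed level was 603 to 14544 CPM in 12Q, 9759 and 13611 in 48Q, with 66245 and 96829 in WT. Tgm4 gave most of the 12Q sums, at 14538 and 598 CPM, with 9655 and 7509 in 48Q and 68614 and 50100 in WT. Pbsn stood at 3.33 and 5.14 CPM in 12Q, 3954 and 2248 in 48Q, with 28214 and 16143.5 in WT. Msmb ranged from 0 to 2.92 CPM. The 3 basal epithelial markers summed to 1.44 and 4.52 CPM in 12Q, 114 and 134 in 48Q, with 120 and 128 in WT, and all 3 passed as lower in 12Q than in WT. The 4 smooth muscle markers summed to 27.4 and 31.2 CPM in 12Q, 224 and 670 in 48Q, with 1703 and 4718 in WT, and all 4 passed as lower in 12Q. The 4 macrophage markers summed to 136 and 162 CPM in 12Q, 165 and 184 in 48Q, with 38.5 and 39.0 in WT, and all 4 passed as higher in both tumor groups. The 3 markers of B and plasma cells summed to 2.41 and 7.70 CPM in 12Q, 81.4 and 118 in 48Q, with 1.36 and 34.6 in WT. Jchain gave most of this sum, at 2.14 and 7.07, 80.8 and 117, and 0.261 and 30.7 CPM. Cd79a stayed between 0.155 and 0.452 CPM, and Ms4a1 was highest in WT replicate 2 (3.71 CPM). The 3 seminal vesicle markers summed to 1.26 and 2.26 CPM in 12Q, 20.9 and 30.8 in 48Q, with 0.0522 and 0.0884 in WT, and the 4 fibroblast markers to 137 and 402, 740 and 857, and 537 and 580 CPM. Of these fibroblast markers, Pdgfra, Col3a1 and Dcn were lower in both 12Q libraries than in WT. Col1a1 was not, at 73.9 and 195 CPM in 12Q against 12.8 and 74.1 in WT. Luminal epithelial markers were present in every library (1717 to 5738 CPM). The part of these cells in the histone values was not tested. Ctnnb1, the targeted gene, stood at 958 and 1035 CPM in 12Q, 1082 and 957 in 48Q, with 669 and 569 in WT, and counts over a whole gene do not show the loss of exon 3.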

How the data were processed

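RNA of 6 mouse prostate libraries was sequenced, 2 per group. The deposited values are raw whole-number counts per gene in 1 table for all libraries, not normalized by the authors. The submitters' processing notes name TopHat2 2.0.14, HTSeq 0.6.0 and the build mm10. Not given in the sources used here are the gene annotation, whether counting used strand, and how multi-mapped reads were handled. This matters for histone genes, which are near-identical copies: 6 of the 64 shared over 90% and 9 under 10% of their 50-base windows with another M21 gene. These windows cover whole M21 transcripts, including extensions past the stem-loop that most of the table's gene models leave out. Hist4h4, for example, shared 7.1% of 2687 windows, but its gene model is 0.438 kb long. Sharing within the counted models was not measured. Gene models of 23, including 5 tested genes, held exons of another M21 gene. Every H2A gene model was among them. The table's gene length, in kb, is another value the authors deposited and was used only for levels per kb. No other columns of samples were present (0).

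The filterByExpr function of edgeR, with a minimum count of 10 and a minimum total of 15, kept 15050 genes. Counts were scaled by TMM, and the quasi-likelihood F test of edgeR 4.0.16 (R 4.3.3) was run in 1 fit of 3 groups with 3 residual degrees of freedom, adjusted by Benjamini and Hochberg's method over all genes tested, with a threshold of 0.05. TMM factors were 1.02 and 1.13 in 12Q, 1.21 and 1.24 in 48Q, with 0.708 and 0.811 in WT. Replicates were not copies of 1 library (chi-square per degree of freedom 256, 42 and 178). Alternatives were DESeq2's size factors, library totals, no filter, DESeq2 1.42.0, a fit of 2 groups, a replicate block and leaving out each library.

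The members and lists were chosen with earlier results of these data known. By rule, any histone gene could be named, and of every other list up to 3 genes per comparison with the smallest adjusted p past 0.05, or the 2 with the highest CPM where none passed, with Slbp, Npat, Mki67, H2afz, H2afx, H3f3a, H3f3b, H1f0 and Ctnnb1 always.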

Additional observations from a re-analysis of the deposited data

How the results depend on the processing

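The number of histone genes called rested on the setting. In 12Q tumors against WT, 1 was higher. It was 3 with library totals (Hist1h1c, Hist1h1e and Hist3h2ba), 0 in a fit of the 2 groups alone, 0 with the replicate block and 0 to 1 when 1 library was left out. Without WT replicate 2 the 1 was Hist1h1e, with a WT library at 0 counts, and not Hist1h1c. The lower count was 0, became 1 in DESeq2's test and was 0 to 1 when 1 library was left out, in each case through Hist2h2be. In 48Q tumors against WT, 0 became 2 with library totals (Hist1h1c and Hist1h2be) and 1 in DESeq2's test (Hist1h1c, adjusted p = 0.0491). In 12Q against 48Q tumors, 0 lower became 2 in DESeq2's test (Hist1h2be and Hist2h2be). Hist1h2bc in 12Q against WT was 0.10 and ranged from -0.36 without WT replicate 2 to 0.75 without WT replicate 1. The causes were not tested, beyond the smaller number of samples in the fits that left libraries out. A group left with 1 library was assumed to vary like the others.

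Same-numbered replicates did not deviate together in all pairs of groups (correlations 0.0252, 0.134 and -0.103), so the numbers are not taken to pair the samples. The replicate block ended the Hist1h1c call (1.05, edgeR adjusted p = 0.0565) and changed no other count of called histone genes. Crossed numbers as a pairing in 48Q against WT, chosen after seeing the data, gave 0 higher and 0 lower histone genes. Depth limits most of the 64 genes, of which 38 had 10 or fewer counts over all libraries.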
